A study of Rattus norvegicus with 21 samples.

Results

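The medium dose (20 µg/mL) of the ethanol extract of Jakyakgamcho-tang (JGT) was set against vehicle in PC12 cells, 3 libraries in each group and 6 of the 21 libraries in the series. The libraries were chosen by their treatment labels alone. The other 15 libraries received the ethanol extract at 4 or 100 µg/mL or the water extract at 4, 20 or 100 µg/mL. All groups are the same rat cell line, and the control group is labelled both as vehicle and as untreated. The length of exposure is not given in the sources used here, and nothing in the labels tells whether replicates were grown as separate cultures. So a p-value here reflects only how far these libraries scatter, which may be technical.

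PC12 is a rat adrenal pheochromocytoma line that makes catecholamines, and it often stands in for neurons in culture. JGT is an East Asian formula of peony root, a source of paeoniflorin, and licorice root, a source of glycyrrhizin. Ethanol draws more of the less polar plant compounds, such as flavonoids, into an extract than water does. By its title, the study looked for transcription factors that control the genes responding to JGT.

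The tables list genes by Ensembl rat ID, and the IDs could not be paired with gene symbols here. The markers of chromaffin cells and of other cell types were therefore not checked against the label, and the pathway lists were not counted. By a fixed rule, 2 higher and 2 lower genes are given by ID. Other genes are described by the group they fall in, their length and their values.

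Total expected counts (reads assigned to genes by RSEM, which divides a read among genes it fits equally well) were 19918513 to 23781470 in the vehicle libraries and 11345609 to 15005249 in the medium-dose libraries. Of the genes in the tables, 12251 had a mean of at least 1 CPM (counts scaled to the library total) over the 6 libraries and were tested. Divided reads left a fractional count in 1 or more of the 6 libraries in 1823 of these genes (14.9%). Fragment lengths were 221.7 to 233.5 bases in the vehicle libraries. They were 224.4, 202.5 and 178.7 bases in medium-dose replicates 1, 2 and 3. The 10 most abundant genes took 7.53 to 7.88% of counts in vehicle, and 7.85, 5.87 and 5.74% in medium-dose replicates 1, 2 and 3.

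By the median difference of a gene, every pair of the 3 medium-dose libraries lay further apart than any pair within another group. Between 2 medium-dose libraries, the median absolute log2 difference of a gene in CPM was 0.334 for replicates 1 and 2, 0.407 for replicates 1 and 3, and 0.233 for replicates 2 and 3. Between 2 libraries of any other group it was 0.0719 to 0.212 over 18 pairs, and 0.0719 to 0.0906 between vehicle libraries. At least 1.5-fold apart were 25.6, 34 and 12% of genes in the medium-dose pairs, in the same order. By that share, replicates 2 and 3 were not further apart than low-dose ethanol replicates 1 and 3 (12.1%). Replicates 2 and 3 were thus nearer to each other than either was to replicate 1.

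Each medium-dose library was then compared with the mean log2 CPM of the 3 vehicle libraries. Replicate 1 had 337 genes at least 1.5-fold higher and 789 at least 1.5-fold lower, or 9.19% of those tested. Replicate 2 had 646 and 1090 (14.2%), and replicate 3 had 1494 and 1798 (26.9%). A vehicle library against the mean of the other 2 gave 1.22 to 1.41%. Each of the 3 treated libraries thus lay further from vehicle than the vehicle libraries lay from one another.

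**Figure D1:**
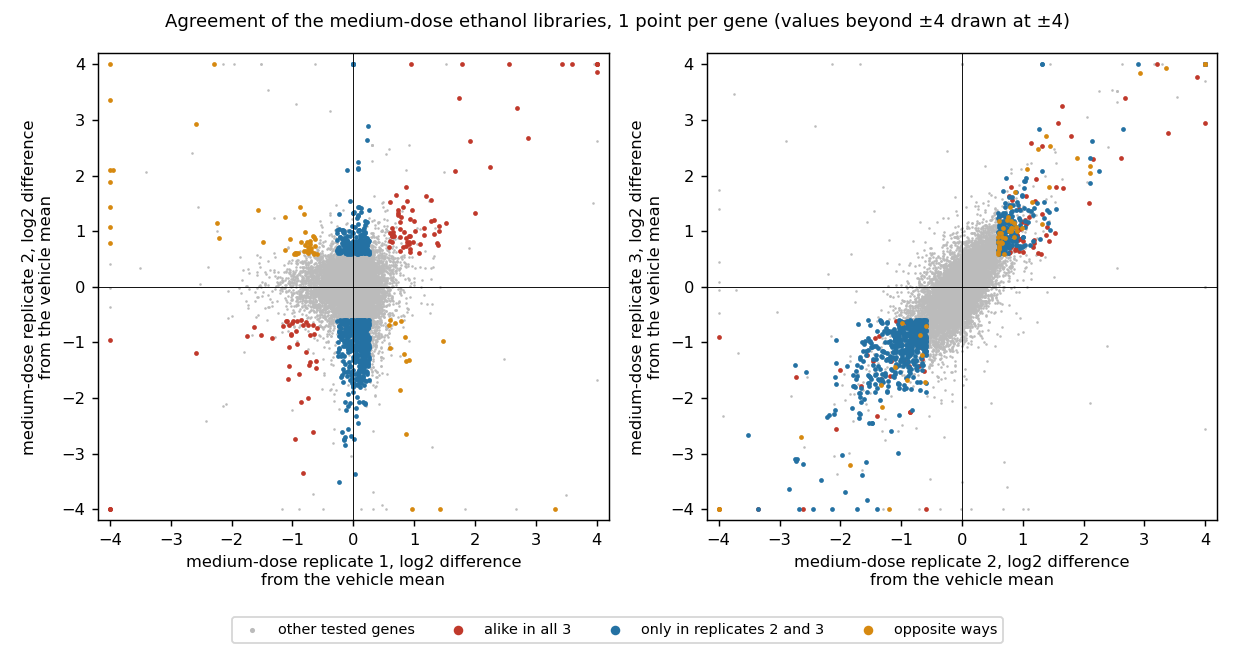
Each point is 1 of 12251 genes, placed by its log2 difference in CPM from the vehicle mean in medium-dose replicates 1 and 2 (left) and 2 and 3 (right). Coloured points are the 113 genes that were alike in all 3 libraries, the 681 that differed only in replicates 2 and 3, and the 59 on opposite sides. The cloud runs along the diagonal on the right and not on the left.

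As a group of 3 against 3, the medium dose gave no gene at an adjusted p under 0.05 when tested with edgeR's quasi-likelihood model and Benjamini-Hochberg adjustment. The lowest adjusted p was 0.0902, and 1592 of 12251 genes (13%) had an unadjusted p under 0.05. DESeq2 called 94 genes higher and 60 lower, and limma-voom called 0 higher and 1 lower. When the spread was estimated over all 21 libraries, edgeR called 1126 genes higher (9.19%) and 742 lower (6.06%). That estimate is drawn mostly from groups whose libraries lie closer together than those of the medium dose.

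When single libraries were left out of the edgeR fit of 6, the count of 0 changed only without medium-dose replicate 1. Without replicate 1, edgeR called 2030 genes higher and 2028 lower from the 2 libraries left, and without any other single library of the 6 it called 0. The 2 libraries left are the medium-dose pair that lay closest together. A small spread between them raises such a count, so it is no test of the medium dose. Of the 4049 genes called without replicate 1 that were also tested with all 6 libraries, replicate 1 itself lay on the same side of the vehicle mean in 1793 (44.3%). This was close to the share over all tested genes. There, replicate 1 lay on the same side as replicate 2 in 46.6% and as replicate 3 in 50.3%. Among the 1868 called with the spread of 21 libraries, where replicate 1 is in the fit, it lay on the same side in 1725 (92.3%).

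A gene was counted as alike in all 3 medium-dose libraries when each of them lay beyond the range of the vehicle libraries on the same side and at least 1.5-fold from the vehicle mean. By this rule 71 genes were higher (0.58% of those tested) and 42 were lower (0.343%). The rule is a description and no test, and scatter between libraries alone can bring a gene into a class. At 2-fold in place of 1.5-fold, 23 were higher and 4 lower. At 1.5-fold with a mean CPM of at least 5, 30 were higher and 22 lower. The median log2 differences of the 71 higher genes were 0.95, 1.14 and 1.17 in replicates 1, 2 and 3. Those of the 42 lower genes were -0.95, -0.91 and -1.26. None of the 113 passed edgeR's test, with lowest adjusted p of 0.263 among the higher and 0.0902 among the lower genes.

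The genes alike in all 3 libraries were weakly expressed, and many shared reads with other genes. In vehicle, the higher ones had a median of 2.04 TPM (a level per length) and the lower ones 7.42, against 18.1 over all tested genes. The filter took the mean over all 6 libraries, so a higher gene could pass it through its treated libraries alone. The low vehicle level of the higher genes may thus be partly set by the filter. Their median lengths were 1473 and 1760 bases, against 2215 over all tested genes. Of the 113, 58 had counts that were not whole, which was 3.18% of such genes tested. The other 55 had whole counts throughout, which was 0.527% of whole-count genes tested.

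The 4 genes named by ID are those with the largest difference in their weakest library. All 4 had counts that were not whole, so their levels depend on how RSEM divided the reads, and each is annotated with 1 transcript. They were chosen for their values, so the values are a description.

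ENSRNOG00000059504.1, a gene of 384 bases, stood at 1.57, 0 and 0 CPM in vehicle replicates 1, 2 and 3 and at 41.3, 437 and 844 CPM in medium-dose replicates 1, 2 and 3. The groups did not overlap, and treated replicate 1 was far below the other 2. Its edgeR adjusted p was 0.347 with 6 libraries, 0.0488 with the spread of 21 libraries and 0.0168 by DESeq2, within a range of 0.00612 to 0.767 over all 16 alternatives tried. In the high-dose ethanol group all 3 libraries had 0 counts, and at the low dose replicate 1 alone had any, at 98.9 CPM. Water-extract libraries reached 39.5 CPM at most, in the medium-dose group.

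ENSRNOG00000046379.2, of 1196 bases, stood at 0, 0 and 6.07 CPM in vehicle and at 47.5, 85.7 and 120 CPM in medium-dose replicates 1, 2 and 3. Its log2 fold change was 5.45 ± 1.39 (SE; edgeR adjusted p = 0.347), and edgeR called it with the spread of 21 libraries (adjusted p = 0.00746; 0.00746 to 0.762 over 16 alternatives). Scaled over all 21 libraries, this gene was also high at the other ethanol doses, with 49.2 to 76.4 CPM in the low-dose and 59.6 to 84.6 CPM in the high-dose libraries. All 9 ethanol libraries lay above the other 12, which had 6.02 CPM at most. In a comparison of the high doses that used neither vehicle nor medium-dose libraries, its log2 fold change for ethanol over water extract was 4.70 ± 0.232 (SE), which passed (edgeR adjusted p = 0.000782). With the spread of 21 libraries the edgeR adjusted p was 0.0975, the only one of 16 alternatives to lose the call.

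ENSRNOG00000059069.1, of 467 bases, stood at 6.56, 9.05 and 9.99 CPM in vehicle and had 0 counts in every medium-dose library. In assigned counts it was at least 34-fold lower, taking 3 counts per library (0.251 CPM) as the floor for a count of 0. Its counts were not whole, and this floor does not cover how RSEM divided shared reads. Its edgeR adjusted p of 0.0902 was the lowest of all genes, with 8.21e-11 by DESeq2, 0.00208 by limma-voom and up to 0.753 over 16 alternatives. It also had 0 counts in 1 library each of the low-dose water, high-dose water, low-dose ethanol and high-dose ethanol groups.

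ENSRNOG00000034130.4, of 642 bases, stood at 2.71, 1.63 and 4.63 CPM in vehicle and had 0 counts in every medium-dose library. In assigned counts it was at least 11.9-fold lower by the same floor, which again does not cover how shared reads were divided. Its edgeR adjusted p was 0.323, with 2.11e-06 by DESeq2 and up to 0.762 over 15 alternatives. A count of 0 was also found in 2 low-dose and 2 high-dose ethanol libraries and in 1 high-dose water library. Over all tested genes, 2 had counts in every vehicle library and 0 in every medium-dose library, and 3 showed the reverse. None of these 5 had whole counts.

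**Figure D2:**
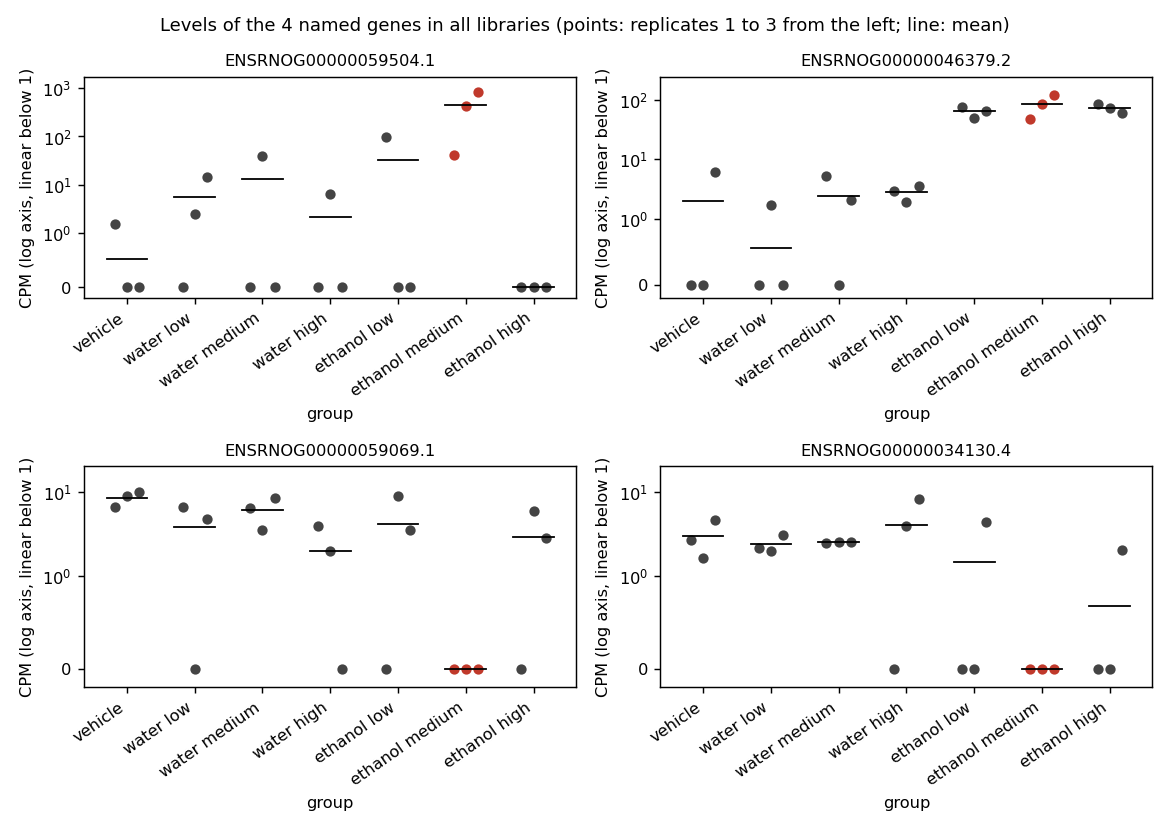
CPM of the 4 named genes in each of the 21 libraries by group, with points for replicates 1 to 3 and a line at the mean, on a log axis that is linear below 1 CPM. ENSRNOG00000046379.2 is high in all 9 ethanol libraries, whereas the other 3 genes differ between libraries of the same group.

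Genes with whole counts showed smaller differences. Those given here were picked after their values were seen, from the 3 on each side with the largest difference in their weakest library. A gene of 2748 bases had 2.8, 3.6 and 2.83 CPM in vehicle and 8.32, 6.69 and 7.49 CPM at the medium dose, from 55 to 122 counts per library. It was 2.14-fold to 2.66-fold above the vehicle mean in the 3 libraries (log2 fold change 1.28 ± 0.177 (SE), edgeR adjusted p = 0.323). In the high-dose groups it had 8.48, 7.93 and 6.81 CPM with ethanol and 4.52, 3.76 and 4.85 CPM with water extract, or 0.82 ± 0.137 (SE) on the log2 scale. This passed with 6 libraries (edgeR adjusted p = 0.00451) and not with the spread of 21 (0.119). All ethanol libraries of the medium and high doses thus lay above all vehicle and high-dose water libraries in this gene.

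On the lower side, a gene of 1882 bases had 69, 50 and 54 counts in the vehicle libraries and 5, 13 and 12 at the medium dose, or 3.02, 2.15 and 2.78 CPM against 0.341, 1.09 and 0.781. Replicate 1 was the lowest, 6.04-fold below the vehicle mean, and the groups did not overlap (log2 fold change -1.86 ± 0.372 (SE), edgeR adjusted p = 0.347). At the high dose its mean was 1.18 ± 0.108 CPM with ethanol and 1.79 ± 0.139 CPM with water extract (SD, n = 3 each), which did not pass (edgeR adjusted p = 0.0784). Low-dose ethanol replicates 1, 2 and 3 had 0.927, 2 and 2.14 CPM, so the low level was not shared by all ethanol libraries. A gene of 2137 bases with more counts had 13.3, 11.2 and 10.7 CPM in vehicle and 4.02, 6.35 and 6.45 CPM at the medium dose (edgeR adjusted p = 0.347).

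A wider count asked only that all 3 medium-dose libraries lie above, or below, all 3 vehicle libraries. This held for 1462 genes above (11.9% of those tested) and 1395 below (11.4%). Their median log2 differences were small, at 0.21, 0.31 and 0.49 in replicates 1, 2 and 3 for the higher and -0.25, -0.27 and -0.48 for the lower genes. These genes were near the average in length and level, with medians of 2094 and 2622 bases and of 20.2 and 17.3 TPM in vehicle.

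Replicates 2 and 3 shared more differences from vehicle than the other pairs of medium-dose libraries did. Both lay beyond the vehicle range on the same side and at least 1.5-fold from its mean in 475 higher and 731 lower genes. The same rule gave 120 higher and 137 lower genes for replicates 1 and 3, and 93 and 68 for replicates 1 and 2. By construction, each of these counts includes the genes alike in all 3 libraries. Of the 475, replicate 1 was also at least 1.5-fold higher in 73, within 1.2-fold of vehicle in 210, and at least 1.5-fold lower in 51. Of the 731, replicate 1 was also at least 1.5-fold lower in 42, within 1.2-fold in 471, and at least 1.5-fold higher in 15. On the lower side, replicate 1 was thus near vehicle in most of the genes. This also held over all tested genes, where its median absolute log2 difference from vehicle was 0.194, within 1.2-fold.

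The genes that stood apart from vehicle only in replicates 2 and 3, with replicate 1 within 1.2-fold of it, numbered 210 higher (1.71% of those tested) and 471 lower (3.84%). The same rule gave 7 higher (0.0571%) and 8 lower (0.0653%) genes for replicates 1 and 2 only. For replicates 1 and 3 only it gave 12 higher (0.098%) and 52 lower (0.424%). The 471 lower genes had median log2 differences of 0.08, -0.94 and -1.04 in replicates 1, 2 and 3, and the 210 higher genes 0.03, 0.75 and 1.04. Shared reads were frequent here too. Of the 681 genes, 185 had counts that were not whole (10.1% of such genes tested). The other 496 were 4.76% of whole-count genes tested.

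The 471 genes lower only in replicates 2 and 3 were short and abundant. Their median length was 1028 bases, against 2215 over all tested genes, and their median vehicle level was 75.1 TPM, against 18.1. Short genes had higher levels in general, with medians of 93 TPM under 400 bases and 11.4 TPM over 4000 bases. The part of length in the level of the 471 genes was not tested. The 210 higher genes were of average length (2331 bases) and less abundant in vehicle (5.37 TPM), which the filter over all 6 libraries may partly set. With the tested genes cut by length into 5 classes of 2450 or 2451, 304 of the shortest class (204 to 1329 bases) were lower only in replicates 2 and 3, and 3 of the longest class (3717 to 23971 bases).

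Single genes show the size of the gap. A gene of 204 bases, the shortest tested, had 368, 365 and 322 CPM in vehicle and 355 CPM in medium-dose replicate 1, but 34.1 and 21.6 CPM in replicates 2 and 3. These last values are 10.3-fold and 16.2-fold below the vehicle mean and rest on 408 and 331 counts. A gene of 342 bases had 259, 300 and 285 CPM in vehicle, 256 CPM in replicate 1, and 42.7 and 32.9 CPM in replicates 2 and 3. In both genes replicate 1 stood inside or just below the vehicle range while replicates 2 and 3 were far below it.

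On the higher side, a gene of 709 bases had 28, 28.7 and 25.7 CPM in vehicle and 27.6 CPM in replicate 1, but 69.8 and 64.7 CPM in replicates 2 and 3. All 3 of these genes had whole counts and were picked after their values were seen. None passed with 6 libraries, with edgeR adjusted p of 0.537 and 0.461 for the lower genes and 0.357 for the higher one.

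In 59 genes the libraries lay on opposite sides of vehicle, at least 1.5-fold from it each way. Of these, 44 were higher in replicates 2 and 3 and lower in replicate 1 (0.359% of those tested), and 15 the other way round (0.122%). Counts were not whole in 31 of the 59 (1.7% of such genes tested). The other 28 were 0.269% of whole-count genes tested. The split into 44 and 15 turned on how length was treated. It became 65 and 9 genes after the median difference of each length class was taken out. With values scaled by effective length it became 40 and 22. A gene of 348 bases had 15, 17.2 and 18.5 CPM in vehicle, 30.7 CPM in replicate 1, and 2.59 and 2.47 CPM in replicates 2 and 3.

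Gene length went with the difference from vehicle in opposite directions in the treated libraries. In the shortest of the 5 length classes, the median log2 difference was 0.15 in replicate 1, -0.29 in replicate 2 and -0.11 in replicate 3. In the longest class it was -0.21, 0.14 and 0.01. The vehicle libraries, each against the other 2, stayed between -0.06 and 0.04 in these classes. Across genes, the rank correlation of the difference with length was -0.417 in replicate 1, 0.341 in replicate 2 and 0.0615 in replicate 3, against -0.154 to 0.239 in the vehicle libraries and -0.25 to -0.0136 in the other 15 treated libraries. Genes share each library's fragment length, so these correlations are descriptions of libraries.

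**Figure D3:**
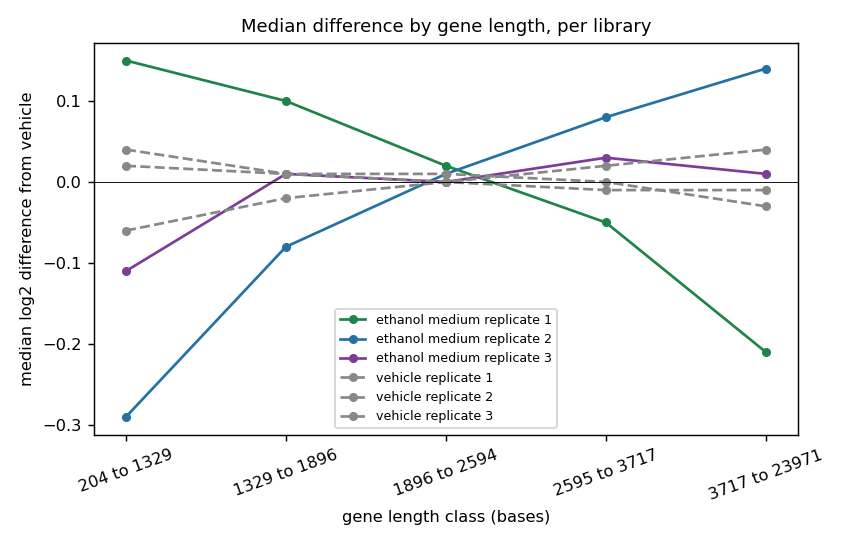
Median log2 difference from vehicle in 5 classes of gene length with about equal numbers of genes, for the 3 medium-dose libraries (solid) and for each vehicle library against the other 2 (dashed). Replicate 1 goes from 0.15 in the shortest class to -0.21 in the longest, and replicate 2 from -0.29 to 0.14.

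The short genes stood out most. Among 298 genes of 400 to 600 bases, 163 were at least 1.5-fold lower in replicate 2, 123 in replicate 3 and 9 in replicate 1. Their median log2 differences were 0.16, -0.69 and -0.42 in replicates 1, 2 and 3. The 109 genes under 400 bases had medians of 0.15, -0.6 and -0.15, and in the 18 libraries of other groups the medians of these genes lay between -0.12 and 0.2. Counts were not whole in 46.8% of the genes under 400 bases and in 41.6% of those of 400 to 600 bases, against 14.9% of all tested genes. The part that fragment length, RNA quality or the division of shared reads has in these differences was not tested. Taking out the median difference of each of 20 length classes left 258 genes higher and 381 lower only in replicates 2 and 3, and 81 higher and 44 lower in all 3 libraries.

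The classes were next read in libraries that had not defined them. High-dose ethanol extract was set against high-dose water extract, 3 libraries each, with neither vehicle nor medium-dose libraries in the fit. A gene that rose or fell here was higher or lower with ethanol than with water extract, not against vehicle. The comparison was added after the data were seen. Fragment lengths were 213.6, 231.1 and 217 bases with ethanol and 216.6, 227.3 and 222.1 bases with water extract. Over all genes, edgeR called 374 higher (3.06% of 12231) and 391 lower (3.2%), with a median log2 change of 0. That is 6.25% either way, and 24.8% had an unadjusted p under 0.05. These calls depended on the fit: with the spread of 21 libraries, edgeR called 6 genes in all.

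Of the 71 genes higher in all 3 medium-dose libraries, 66 were tested at the high dose, where 13 rose (19.7%) and 0 fell. Of the 42 lower ones, 41 were tested, where 8 fell (19.5%) and 0 rose. Their median log2 changes were 0.3 and -0.29. Leaving out each of the 6 high-dose libraries in turn gave 5 to 15 of the higher and 2 to 8 of the lower genes, against 0.548 to 4.44% and 0.769 to 4.14% of all genes in the same direction. The higher genes numbered 6, 5 and 8 without ethanol replicate 1, ethanol replicate 2 and water replicate 2, and the lower genes 2 without water replicate 2. By DESeq2, 6 of the higher and 5 of the lower genes passed (9.09 and 12.2%, against 3.83 and 3.73% of all genes).

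Of the 210 higher ones, 191 were tested at the high dose and 11 rose (5.76%), with a median log2 change of 0.11. Without high-dose ethanol replicate 1 this count was 1 (0.529%, against 0.818% of all genes), and without ethanol replicate 2 it was also 1 (0.521%, against 0.548%). Each of these shares rested on 1 gene, so neither can be told apart from that of all genes. Without water replicate 2 the count was 4 (2.09%, against 0.752%). Of the 471 lower ones, 470 were tested, 53 fell (11.3%) and 5 rose, with a median log2 change of -0.1. Without single libraries 12 to 61 of them fell (2.55 to 13%, against 0.769 to 4.14% of all genes). Without ethanol replicate 1 it was 15 (3.19%, against 1.05%), without ethanol replicate 2 it was 12 (2.55%, against 0.769%), and without water replicate 2 it was 18 (3.83%, against 1.06%). DESeq2 called 13 of the higher genes (6.81%) and 71 of the lower genes (15.1%) in the same direction, against 3.83 and 3.73% of all genes. Of the genes higher in replicates 2 and 3 and lower in replicate 1, 40 were tested, where 0 rose and 1 fell (2.5%, against 3.2% of all genes). Of those the other way round, 15 were tested, where 1 rose (6.67%, against 3.06%) and 0 fell. The differences between the classes were not tested, and by DESeq2 their order was not the one edgeR gave.

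**Figure D4:**
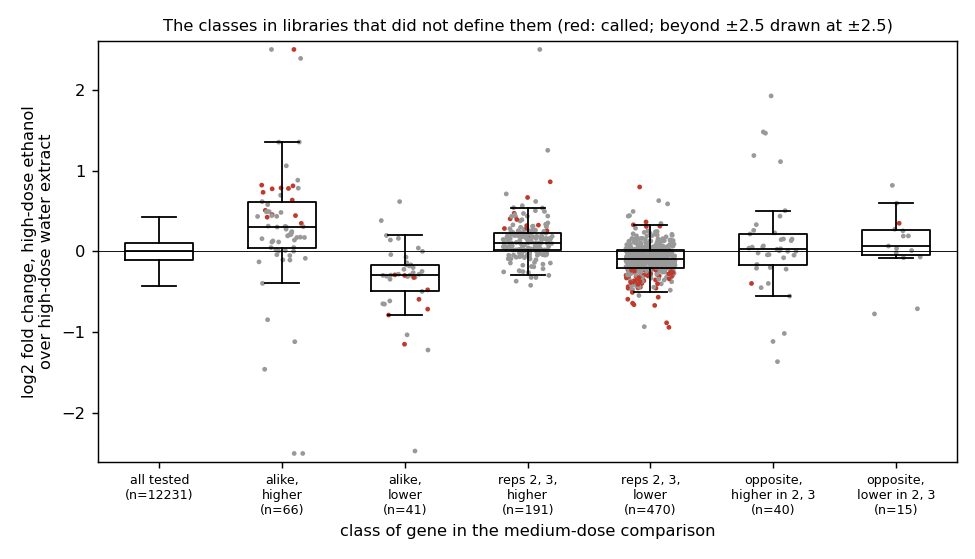
Log2 fold change of high-dose ethanol over high-dose water extract for all tested genes and for the classes of the medium-dose comparison, as boxes (median and quartiles, whiskers to 1.5 box lengths) with 1 point per gene and called genes in red. The genes alike in all 3 medium-dose libraries centre on 0.3 (higher) and -0.29 (lower).

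The genes of replicates 2 and 3 were also followed inside each other group, as the difference of each library from the mean of the other 2. In low-dose ethanol replicate 1, the 210 higher genes had a median log2 difference of 0.28 and the 471 lower genes of -0.25, with 161 and 385 of them on that side. In the other 14 treated libraries outside the medium dose, these medians were -0.19 to 0.03 and -0.06 to 0.16. The values -0.19 and 0.16 belong to low-dose ethanol replicate 3, whose reference includes low-dose replicate 1. By construction, a library that stands apart moves the other 2 of its group the opposite way. Low-dose ethanol replicate 1 also had the fewest counts (8344416) and a fragment length of 193.8 bases. Its part in this likeness was not tested.

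**Figure D5:**
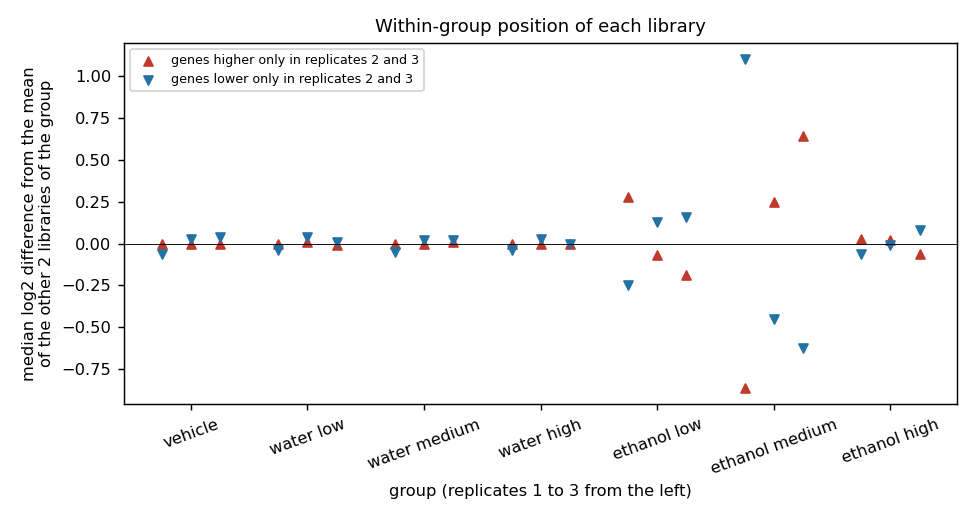
Median log2 difference of each of the 21 libraries from the other 2 of its group, for the 210 genes higher (upward triangles) and the 471 lower (downward triangles) only in medium-dose replicates 2 and 3. Outside the medium dose, low-dose ethanol replicate 1 shows the widest gap, at 0.28 and -0.25.

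The medium dose was last compared directly with the high dose of the same extract and with the same dose of the water extract. Against high-dose ethanol, edgeR called 0 genes, and 893 (7.27%) had an unadjusted p under 0.05. DESeq2 called 19 and limma-voom 3. Against medium-dose water, edgeR called 0 genes, and 1190 (9.7%) had an unadjusted p under 0.05. DESeq2 called 61 and limma-voom 2. Without medium-dose replicate 1, edgeR called 1805 genes higher and 1867 lower than at the high dose, and 1989 higher and 2038 lower than with water extract. These counts rest on the medium-dose pair that lay closest together, so they do not measure a difference of dose or extract. A count of 0 does not show that these groups were alike.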

How the data were processed

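Per the labels' protocols, messenger RNA libraries were made from total RNA with a directional kit. The authors deposited expected counts per gene for each library, with TPM and gene and effective lengths in bases, per the file headers. The counting tool was RSEM 1.3.3, per the submitters' processing notes. Which aligner version, genome build, annotation and strand setting were used is not given in the sources used here. The tables list 32883 Ensembl IDs, and 0 of them were paired with a symbol by a RefSeq table of 47357 rat genes.

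Expected counts were rounded and tested with edgeR 4.0.16 (R 4.3.3; quasi-likelihood, robust, TMM) on the 6 libraries compared, keeping genes with a mean CPM of at least 1 and calling at a Benjamini-Hochberg adjusted p under 0.05. Differences of single libraries used log2 CPM with a prior count of 2. Alternatives were DESeq2 1.42.0, limma-voom 3.58.1 with and without library weights, DESeq2 size factors, other filters, length offsets, a fit of 21 libraries, the replicate block and leaving out libraries. Length centring, whole-count genes, leaving out medium-dose libraries from the class counts, the finer length limits and the high-dose comparison were added after seeing the data. The test and the class rules were tested on simulated data, where some genes left unaltered also met the class rules, more of them at the spread of the 6 libraries than at that of vehicle.

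The genes named by ID are, among those alike in all 3 libraries, the 2 higher and 2 lower with the largest value of their smallest absolute difference; the other genes described by length were chosen after seeing the data. The groups, gene lists and rules were chosen with earlier results of these data known. The 34 gene lists went unused for want of symbols. Libraries of 1 group differed beyond sampling noise (chi-square per degree of freedom 3.14 to 153 within vehicle and the medium dose), so no library was counted as a copy. Depth limits low genes: 3 counts correspond to at most 0.251 CPM in a medium-dose library.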

Additional observations from a re-analysis of the deposited data

How the results depend on the processing

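With 6 libraries, the medium dose against vehicle gave 0 genes by edgeR under DESeq2 size factors, effective length offsets, length-centred offsets, whole-count genes only and edgeR's own filter. It gave 154 by DESeq2, 1 by limma-voom, 2713 by limma-voom with library weights (1190 higher and 1523 lower), 1 with no filter and 1868 in the fit of 21 libraries. Against high-dose ethanol these last 5 counts were 19, 3, 2133, 2 and 553, and against medium-dose water 61, 2, 2392, 1 and 1081. The library weights were 0.123, 1.17 and 0.286 for medium-dose replicates 1, 2 and 3 and 2.03 to 3.57 for vehicle. Leaving out 1 library gave 0 to 4058 genes against vehicle, 0 to 3672 against high-dose ethanol and 0 to 4027 against medium-dose water, and each highest value was without medium-dose replicate 1.

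High-dose ethanol against high-dose water gave 765 genes, 1490 with library weights, 1212 with no filter, 6 in the fit of 21 libraries and 161 to 1049 with 1 library left out (221 without high-dose water replicate 2, 228 and 161 without high-dose ethanol replicates 1 and 2). The 113 genes alike in all 3 libraries became 312 with no filter, 52 at a mean CPM of at least 5, 55 with whole counts only, 27 at 2-fold, and 116 to 1206 with 1 library left out (1206 without medium-dose replicate 1, 257 without replicate 2). The 681 genes of replicates 2 and 3 only became 196 at 2-fold and 654 to 718 without single vehicle libraries. The 2857 genes without overlap became 3375 to 7607 with 1 library left out, with 7607 without medium-dose replicate 1 and 4287 without replicate 2. The cause of these differences was not tested, save that fewer libraries or a smaller fold loosen or tighten the class rules by construction.

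The replicate block gave 21 genes against vehicle, 21 against high-dose ethanol, 16 against medium-dose water and 1121 for the high doses. The numbers were not taken to pair the libraries: same-numbered vehicle and medium-dose libraries had correlations of deviations of -0.0674 to -0.0286, and 0 of 3 correlated best with its own number. For the medium dose these were -0.033 to 0.0159 against high-dose ethanol (0 of 3) and -0.0299 to 0.0768 against medium-dose water (1 of 3). Between the high doses they were -0.00717 to 0.151 (1 of 3). Against vehicle, the genes described singly kept their direction under every alternative tried, with the gene of 348 bases not followed here. Between the high doses, the log2 fold change of ENSRNOG00000059069.1 ran from -0.34 to 1.51 over the alternatives. There the genes of 204 and 709 bases also changed sign, from -0.27 to 0.26 and from -0.09 to 0.51. ENSRNOG00000059069.1 passed under 6 of 16 alternatives against vehicle, ENSRNOG00000059504.1 under 4 of 16, ENSRNOG00000034130.4 under 3 of 15 and ENSRNOG00000046379.2 under 2 of 16. Totals of 8344416 to 28420922 counts limit what can be seen in weakly expressed genes.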

Other observations

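Changes found in a single medium-dose library, with both others within 1.2-fold of vehicle, were counted as well. Replicate 1 alone had 27 genes higher and 242 lower, replicate 2 alone 19 and 78, and replicate 3 alone 200 and 268. Replicate 1 was thus mostly on the lower side when it moved alone. Among the 2450 genes in the highest of 5 classes of mean level, the median absolute log2 difference from vehicle was 0.15, 0.21 and 0.32 in replicates 1, 2 and 3, and among the 2451 of the lowest class 0.3, 0.35 and 0.45. The distance of replicate 3 from vehicle was thus present at every level of expression.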
